A study of Homo sapiens with 6 samples.

Results

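The genes described here are 40 components and regulators of autophagy, chosen by name, among them *SCOC*, the coiled-coil protein gene after which the list is titled. Of the 40 genes, 39 had a row in the deposited table, which lists 15917 genes. *FEZ1*, which encodes a partner of the SCOC protein, was not listed and has no value here. The RNA came from MDA-MB-231, an established human breast cancer line of mesenchymal, triple-negative type. The series holds 6 libraries of total RNA in 3 groups of 2 biological replicates: cells with a control hairpin (shCTRL, genotype WT), cells with hairpin shRBMS3-B3 (genotype RBMS3 KD1) and cells with hairpin shRBMS3-C3 (genotype RBMS3 KD2). Both shRBMS3 hairpins are directed against the RNA-binding protein gene *RBMS3*, and all groups were grown in the same medium. The methods of the study name pLKO.1-Puro, a lentiviral plasmid, as the vector of its *RBMS3* hairpins, under other hairpin names than those of the labels. The deposited table holds the authors' own comparison of knockdown and control cells, which was not used, and 1 mean per gene over libraries, which was. The values below are therefore the authors' mean levels in this line. Which libraries entered the mean is not stated, so knockdown and control cells cannot be told apart in it. No difference between groups, no spread between replicates and no depth of a library could be computed from them, and no test was made.

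Autophagy delivers cytoplasm to the lysosome inside a double membrane, the autophagosome. A kinase complex built on ULK1 starts the process, a lipid kinase complex built on PIK3C3 and BECN1 marks the membrane, ATG2, ATG9 and WIPI proteins supply and bind lipid, and a ubiquitin-like conjugation system attaches proteins of the ATG8 family (the LC3 and GABARAP proteins) to the growing membrane. Receptors such as SQSTM1 bind cargo and ATG8 proteins together. SCOC is known as a regulator of autophagy found at the Golgi, where it takes part in a complex with FEZ1 and UVRAG. RBMS3, the protein that the study depleted, binds A- and U-rich elements in 3′ untranslated regions (3′UTRs), so the sequence of these regions is described beside the levels.

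The element that the study attributes to RBMS3, an AUA motif, was searched as 7 bases on the transcript strand: A, G or T, then A or T, then ATA, then A or T, then A. These are 12 different heptamers. Of these, 3 hold AATAAA, the canonical polyadenylation signal, so the motif and the signal overlap by construction. The paper itself also reports AATAAA as the most significant A/U-rich motif among the sites that RBMS3 bound. The 3′UTR of the representative *SCOC* transcript, 4624 bases long, held 19 matches. The following stretches of *SCOC*, read from GENCODE release 44 transcripts on GRCh38 and shown because they hold the element in its different forms, have the heptamer in capitals and 10 bases on each side.
SCOC, 730 bases after the stop codon, chr4:140381824-140381850, plus strand: tattatctgaAAATATAtaatttctgg
SCOC, 1335 bases after the stop codon, chr4:140382429-140382455, plus strand: ttagctgtgtGAATATAtaatagtcaa
SCOC, 1428 bases after the stop codon, chr4:140382522-140382548, plus strand: ctttgccgttTAATAAAaagctatttc
SCOC, 3218 bases after the stop codon, chr4:140384312-140384338, plus strand: tcttcattagAAATATAggtggtacac
SCOC, 4518 bases after the stop codon, chr4:140385612-140385638, plus strand: ggtagttgaaTTATAAAatctaaaatt
The stretches at 730, 1335 and 3218 bases hold ATATA without the polyadenylation signal, and the stretch at 1428 bases holds the signal. The heptamer at 1428 bases, with the same 10 bases before it, also occurs in the paper's *SCOC* reporter sequence. The paper chose that sequence as an RBMS3-binding site from its own binding data and paired it with a scrambled control. Binding was not analysed here.

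*SCOC* (ENSG00000153130) is annotated at chr4:140257286-140385728 and is read from the plus strand. The authors' mean normalized count was 289 for *SCOC*, at percentile 44.7 of all listed genes. Divided by the 4995 bases of the representative transcript, the level was 57.9 per kilobase, at percentile 28.8 of listed genes and rank 33 among the 39 listed members. This value depends on which transcript is taken. GENCODE has 9 coding transcripts of *SCOC* with the same stop codon. The longest 3′UTR ends at 140385728, and 5 transcripts end together between 140382545 and 140382556, with 3′UTRs of 1441 to 1452 bases. With the lengths of these 5 transcripts, 1838 to 2193 bases, the same mean gave 132 to 157 per kilobase, at percentiles 49.0 to 53.5. The heptamer with the polyadenylation signal at 1428 bases lies 7 to 18 bases before this common end. The 5 transcripts hold 8 of the 19 heptamers, and the remaining 11 lie in the longer 3′UTR alone. The other 3 transcripts, with 3′UTRs of at most 471 bases, hold none. Which of these 3′UTRs the cells used was not analysed here.

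**Figure D1:**
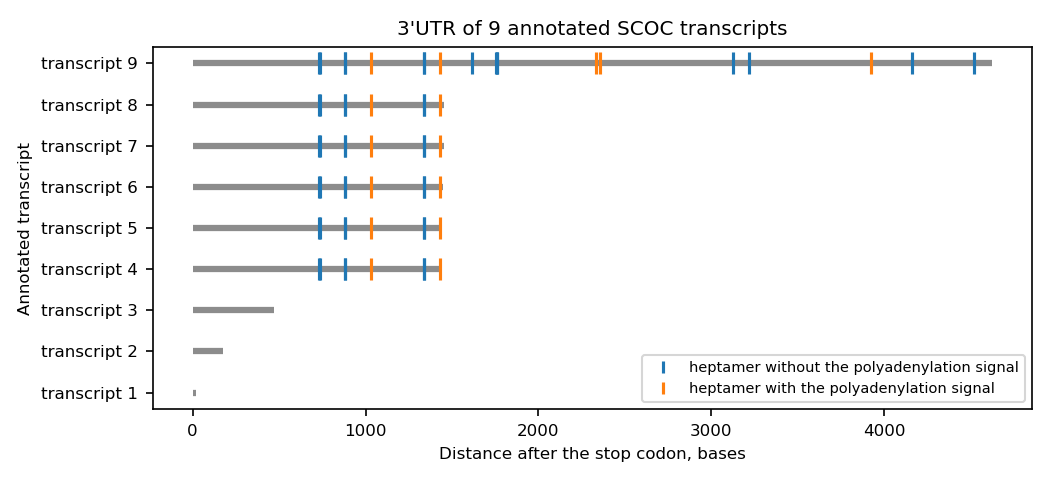
3′UTR of the 9 annotated coding *SCOC* transcripts, ordered by length. The horizontal axis is the distance after the stop codon in bases, bars are 3′UTRs, and marks are heptamers (orange where they hold the polyadenylation signal). The 5 transcripts of middle length end just after an orange mark at 1428 bases, and 11 of 19 heptamers lie beyond that end.

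Levels of different genes are compared from here on per kilobase of representative transcript, in units of mean normalized count. The 39 members had a median of 148 per kilobase, against 137 for the 15829 listed genes with a GENCODE length and 152 for the 12408 protein-coding ones. The median percentile of the members among listed genes was 52.1. As a group they were thus placed near the middle of the listed genes, with a range from 4.89 for *ULK2* to 3075 for *SQSTM1*. Listed genes start at a mean normalized count of 26.7, so these percentiles leave out the genes of lowest expression.

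The cargo receptors were the group with the highest median level, 603 per kilobase, and all 5 were among the 9 highest members, at ranks 1, 5, 6, 8 and 9. *SQSTM1*, which encodes the receptor p62, had 3075 per kilobase, at percentile 96.6, and alone made up 24.0% of the summed level of the 39 members. *NBR1*, a related receptor, followed with 644, *OPTN* with 603, *CALCOCO2* (the receptor NDP52) with 470 and *TAX1BP1* with 416 per kilobase. All 5 receptors lay at or above percentile 76.7, and their median percentile was 83.2. Per kilobase of all exons *TAX1BP1* was lower, with 155, at percentile 65.0 and rank 14 among the members. With no division by length *TAX1BP1* was at rank 8. Within the 5 genes *SQSTM1* accounted for 59.0% of the summed level, and 4.77 times as much as *NBR1*. The ratio of *SQSTM1* to *NBR1* was 3.28 when all annotated exons were used as length and 2.94 with no division by length. By each of these measures *SQSTM1* stood first in this group, while *OPTN* (408) stood above *NBR1* (354) per kilobase of all exons.

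The ATG8 family, whose members are attached to the membrane and bind the receptors, was uneven. *GABARAP* had 1035 per kilobase (percentile 90.0), the second highest level of all members. With no division by length *GABARAP* was at rank 9. *MAP1LC3B*, the LC3 gene most used as a marker of autophagosomes, had 374, and *GABARAPL2* had 316. *GABARAPL1*, with 93.1, and *MAP1LC3A*, with 81.9, lay below the median of listed genes. *GABARAP* made up 54.5% of the summed level per kilobase of the family and *MAP1LC3B* 19.7%. *MAP1LC3B* was 4.57 times as high as *MAP1LC3A* per kilobase and 2.33 times per kilobase of all exons, but 10.2 times with no division by length. The value of *MAP1LC3B* is uncertain, because the near-identical copy *MAP1LC3B2* could share reads with it. *MAP1LC3B2* was listed with a mean normalized count of 48.0 against 804 for *MAP1LC3B*, and how the counting split reads between them was not tested.

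**Figure D2:**
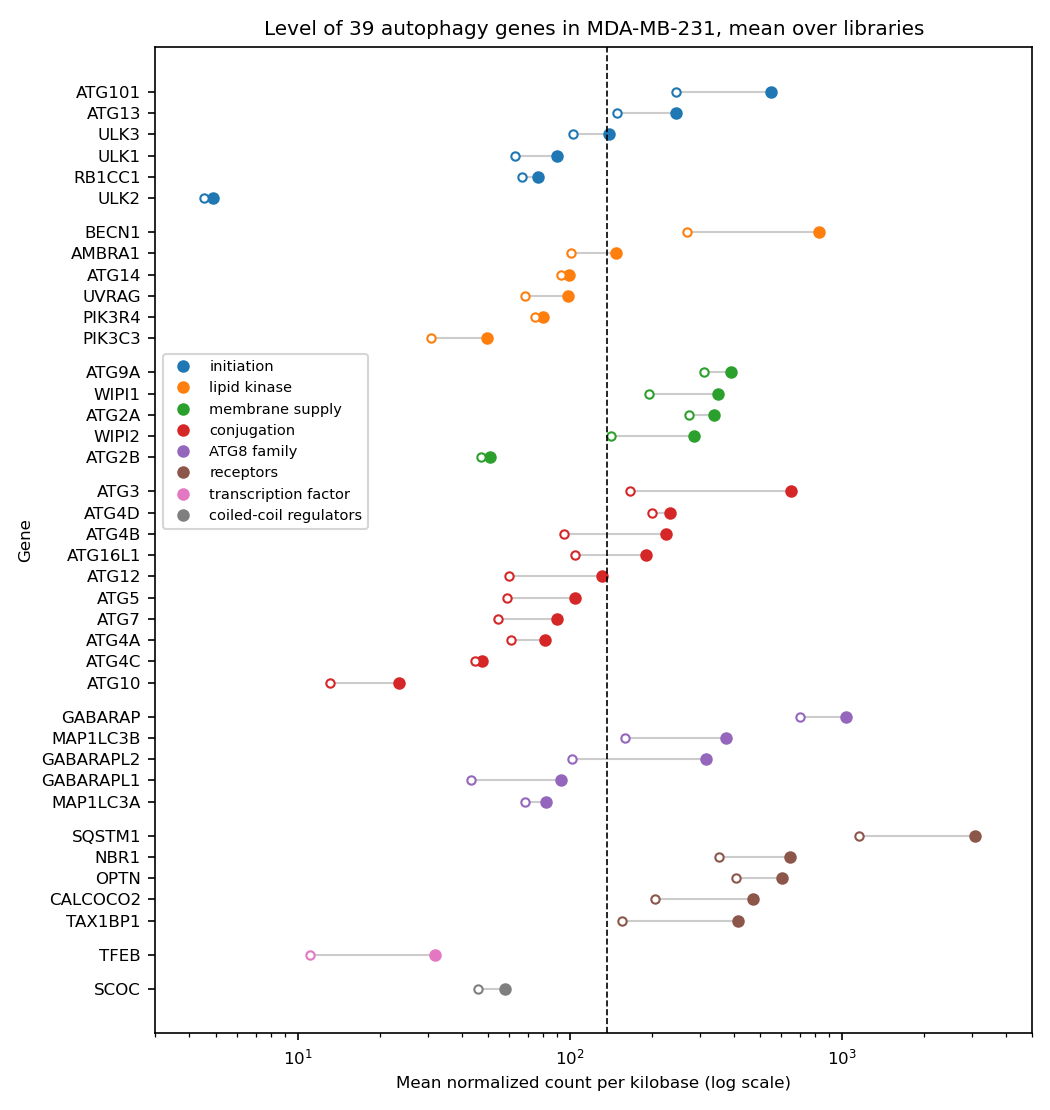
Level of the 39 listed autophagy genes, grouped by role. The horizontal axis is the authors' mean normalized count per kilobase on a log scale. Filled points use the representative transcript and open points all annotated exons. The dashed line is the median of listed genes per kilobase of representative transcript, 137, and so applies to the filled points only. The receptors sit to the right of the line, and *ULK2*, at 4.89, lies far to the left of every other member.

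In the initiation complex *ATG101*, which stabilizes ATG13, had 548 per kilobase and *ATG13* itself 245, both above the kinase genes. The order of *ATG101* and *ATG13* turned without length, with mean normalized counts of 786 and 1042. The kinase gene *ULK1* had 89.7 and the scaffold gene *RB1CC1* (FIP200) 76.4. *ULK2*, the paralog of *ULK1*, was the lowest of all members with 4.89 per kilobase, at percentile 0.755, and a mean normalized count of 44.8. *ULK1* exceeded *ULK2* by 18.3 times per kilobase, by 13.8 times per kilobase of all exons and by 10.7 times with no division by length. *ULK3*, a more distant kinase of the same family, had 140 per kilobase (percentile 50.7), the one kinase gene above the median of listed genes. Without length *ULK3* lay at percentile 49.8 and *ULK1* at 56.5, so this turned as well. The ratio of *ULK1* to *ULK3* was 0.641 per kilobase and 1.32 without length, so that their order turned.

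Among the genes of the lipid kinase complexes, *BECN1* had 822 per kilobase (percentile 87.6), the third highest level of all members. *BECN1* was at rank 7 per kilobase of all exons and at rank 5 with no division by length. The catalytic subunit gene *PIK3C3* had 49.6 per kilobase and the gene of its regulatory subunit, *PIK3R4*, had 79.7. The ratio of *BECN1* to *PIK3C3* was 16.6 per kilobase of transcript and 8.77 per kilobase of all exons, but 3.71 with no division by length, since the *PIK3C3* transcript is 9415 bases long and that of *BECN1* 2109. *ATG14* and *UVRAG*, which encode alternative subunits of the complex at early and late steps, had 99.2 and 98.5 per kilobase, a ratio of 1.01. The ratio of *ATG14* to *UVRAG* was 1.36 per kilobase of all exons and 0.928 without length, so that the order of this pair turned too. *AMBRA1*, a scaffold that binds BECN1, had 148.

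Of the genes for membrane supply, *ATG9A*, the lipid scramblase carried by vesicles, had 390 per kilobase. *ATG2A*, a lipid transfer protein gene, had 340, and its paralog *ATG2B* had 50.9, a ratio of 6.68. Without division by length the ratio of *ATG2A* to *ATG2B* was 3.21, and *ATG2A* (2147) stood above *ATG9A* (1470). *WIPI1* and *WIPI2*, whose proteins read the lipid mark, had 349 and 287 per kilobase, and their order turned when no length was used, with a ratio of *WIPI2* to *WIPI1* of 0.821 per kilobase and 1.91 without length.

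The genes of the conjugation machinery differed widely in level. *ATG3*, the E2-like enzyme for ATG8 proteins, had 651 per kilobase, and *ATG10*, the E2-like enzyme for ATG12, had 23.5, a ratio of 27.7. The ratio of *ATG3* to *ATG10* was 12.8 per kilobase of all exons and 14.3 without length. The E1-like enzyme gene *ATG7* had 89.9. *ATG12*, *ATG5* and *ATG16L1*, whose products form the complex that directs lipidation, had 132, 104 and 191 per kilobase. Of the 4 genes for ATG4 proteases, which trim and release ATG8 proteins, *ATG4D* had 233 and *ATG4B* 226 per kilobase, while *ATG4A* had 81.0 and *ATG4C* 47.5. The order of *ATG4D* and *ATG4B* turned with the length used: the ratio of *ATG4B* to *ATG4D* was 0.970 per kilobase, 0.474 per kilobase of all exons and 1.38 without length.

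*TFEB*, which encodes a transcription factor of lysosomal and autophagy genes, was among the lowest members, with 31.9 per kilobase (percentile 17.2) and a mean normalized count of 74.3. Its relative *TFE3*, which is not among the 40 genes, had 471 per kilobase. Of 28 further autophagy genes, 24 were listed, with a median of 223 per kilobase, from 34.5 for *STX17* to 1203 for *BNIP3*. *FEZ2*, the paralog of the unlisted *FEZ1*, had 335 per kilobase. The targeted gene *RBMS3* had a mean normalized count of 272 and 32.1 per kilobase, a mean over libraries that checks no hairpin. All 8 markers of the line were listed at 1103 per kilobase or more, with *VIM* highest, while *ESR1*, *PGR* and *FOXA1* of luminal cells were not listed and *EPCAM*, *GATA3* and *CDH1* had 69.3, 55.6 and 6.57 per kilobase.

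The AUA heptamer was present in the 3′UTR of 32 of the 39 listed members, 82.1%, against 84.8% of the 12350 listed genes with a 3′UTR. Its number follows length, and the members were near the listed genes in length too, with a median 3′UTR of 1357 bases against 1378. If every member had the share of listed genes of its own length group, among 5 equal groups by 3′UTR length, 33.8 members would hold the heptamer. At least 3 heptamers were found in 21 members, 53.8%, against 53.1% of listed genes, and the median density was 2.24 per kilobase of 3′UTR against 2.43. The autophagy genes as a group thus did not stand out by this element.

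Single members differed widely. *PIK3C3* held 26 heptamers in 6693 bases, the most of any member, followed by *SCOC* with 19 in 4624 bases and *ATG2B* with 16 in 6560. Per kilobase of 3′UTR, *SCOC* had 4.11, at percentile 72.8 of listed genes. The densest members had short or A/U-rich 3′UTRs: *ATG3* had 15.9 per kilobase in a 3′UTR of 189 bases, *PIK3R4* 10.5 in 381 bases, *TAX1BP1* 9.59 in 938 bases and *ATG4C* 9.58 in 1357 bases. *WIPI2* stood at the other end, with no heptamer in 2893 bases that are 48.6% A+U, where 95.5% of listed genes in the same length group hold at least 1. *GABARAP*, *ATG4B*, *ATG4D*, *AMBRA1*, *ULK3* and *TFEB* also held none. Across the 39 members, density had a Spearman rho of 0.721 with A+U content, which the motif itself is made of, and of -0.19 with the level per kilobase. Over all listed genes with a 3′UTR, the rho of density with the level per kilobase was -0.055.

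**Figure D3:**
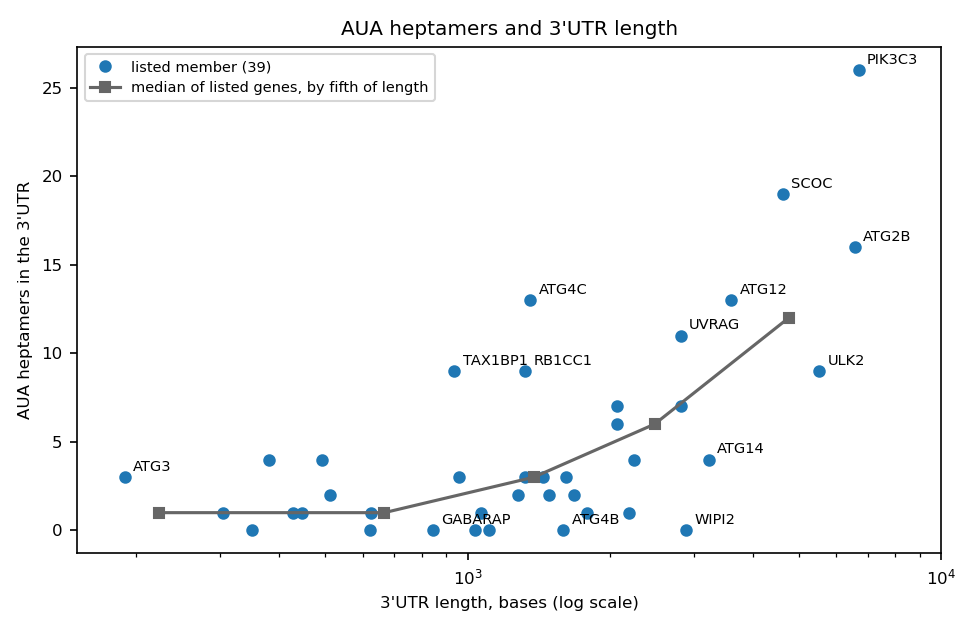
Number of AUA heptamers in the 3′UTR of each listed autophagy gene against 3′UTR length (log scale). Grey squares join the medians of all listed genes in 5 equal groups by length. *SCOC* and *ATG4C* lie above this line, and *WIPI2* and *ATG14* below it. *PIK3C3*, with 26 heptamers, and *ULK2*, with 9, lie beyond its right end, where the median of the longest group is 12.

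The overlap with the polyadenylation signal was large. Of the 191 heptamers in the listed members, 77 (40.3%) hold AATAAA, and over all listed genes the share was 36.0%. The most frequent single form in the members was AAATAAA, with 35 sites in 22 members, followed by AAATATA with 23 sites in 12 members, 5 of them in *SCOC*. Within 40 bases of the annotated transcript end lay 28 sites, of which 22 hold the signal. In 22 members (56.4%) a heptamer counted as an AUA element thus holds the signal and lies within 40 bases of the annotated end, against 52.2% of listed genes. In *ATG5* this heptamer is the very end of the transcript. When heptamers with AATAAA were left out, a choice made after the values were seen, 23 members kept a heptamer (59.0%), against 62.4% of listed genes. The 9 members that lost theirs include *BECN1*, *MAP1LC3B*, *ULK1* and *CALCOCO2*.

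These stretches show such terminal sites, again with the heptamer in capitals, beside 2 internal sites that hold no signal.
SQSTM1, 21 bases before the transcript end, chr5:179838041-179838067, plus strand: aagacaaagcAAATAAAtgccttccac
MAP1LC3B, 20 bases before the transcript end, chr16:87404738-87404764, plus strand: gaactaagttGAATAAAggcacaatta
BECN1, 24 bases before the transcript end, chr17:42810148-42810174, minus strand: taattatttgTAATAAAagatttgctg
ATG4C, 609 bases after the stop codon, chr1:62864758-62864784, plus strand: tatgaggagtGAATATAaagtattggt
PIK3R4, 34 bases after the stop codon, chr3:130679265-130679291, minus strand: taatagttatAAATATAatactataac
In *MAP1LC3B* and *BECN1* no other form occurs: both heptamers of *MAP1LC3B* and the single one of *BECN1* hold the signal. *SCOC* differs from them in that 14 of its 19 heptamers do not. None of its heptamers lies within 40 bases of the end of its longest 3′UTR. In the 5 *SCOC* transcripts with the earlier common end, the heptamer with the signal at 1428 bases lies 7 to 18 bases before that end. For those transcripts *SCOC* has a terminal site like *MAP1LC3B* and *BECN1*.

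**Figure D4:**
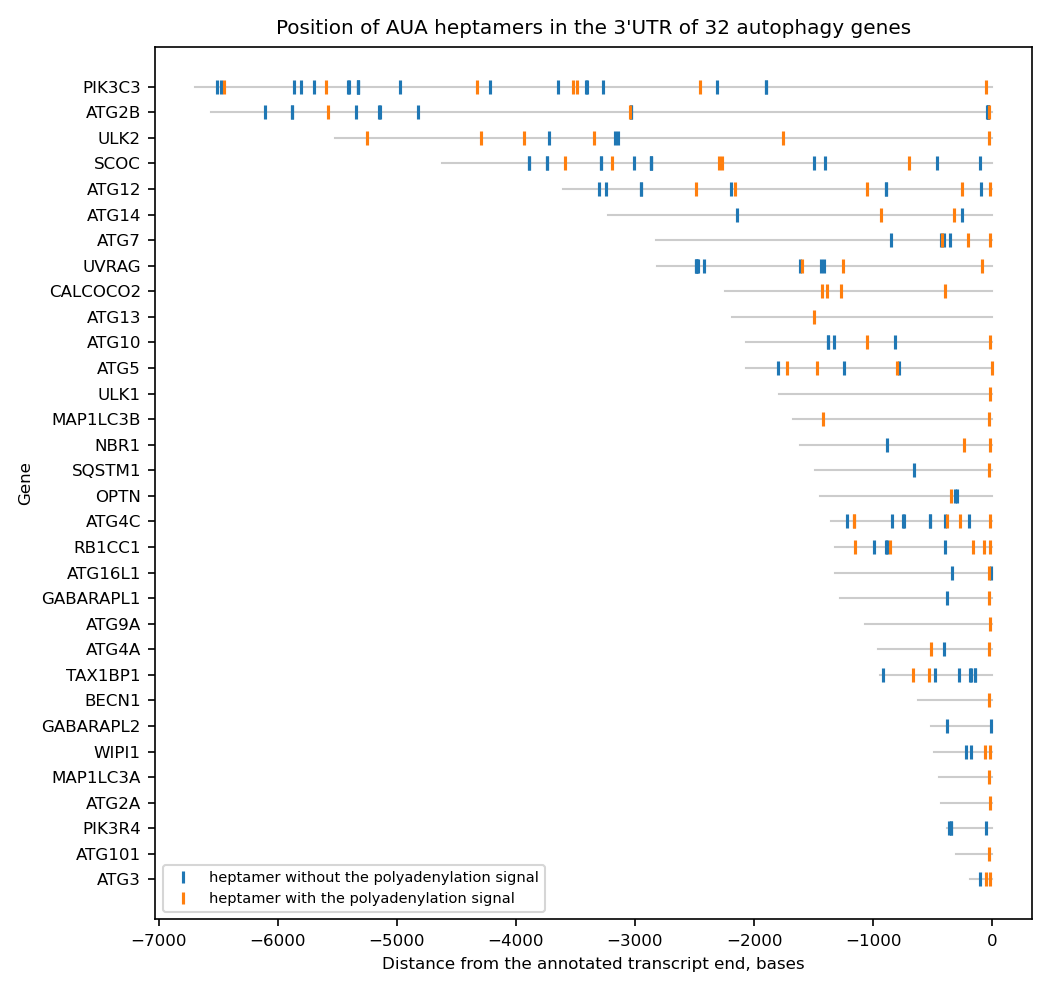
Position of AUA heptamers in the 3′UTRs of the 32 members that hold any, ordered by 3′UTR length. The horizontal axis is the distance from the annotated transcript end in bases, grey lines are 3′UTRs, and orange marks are heptamers that hold the polyadenylation signal. Orange marks line up at the right edge in 22 members.

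The choice of annotated transcript matters for other members as well. In 16 of the 39, at least 1 annotated coding transcript has a 3′UTR with a heptamer and another has one without. The transcripts compared include short ones that end far from the representative transcript, as in *PIK3C3* and *ATG7*. *PIK3C3* transcripts range from 67 to 6693 bases of 3′UTR and from 0 to 26 heptamers. The lower values come from shorter transcripts that end elsewhere, while those of 9415 and 9206 bases share their end and all 26 heptamers. *ATG12* ranges from 1192 to 3604 bases and from 5 to 13 heptamers, in transcripts that end at different bases. *ATG3* ranges from 189 to 1686 bases and from 3 to 7, although its annotated coding transcripts end at the same base. *ATG14* and *ATG2B* have 1 annotated coding transcript with a 3′UTR each, so that their 4 and 16 heptamers do not depend on this choice. Levels per kilobase move with the transcript taken as well. Over annotated coding transcripts, *ATG12* ranged from 132 to 372, *ATG3* from 339 to 651 and *ULK2* from 4.89 to 11.5.

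At the other end of the genes, the promoter windows of RefSeq (GRCh38.p14, 250 bases before to 50 after each start) covered 36 of the 40 genes. The palindrome CACGTG, core of the element through which TFEB binds its targets, was found in windows of 4 of these genes (11.1%), *ATG3*, *ATG14*, *ULK3* and *FEZ1*, against 8.77% of all genes with windows. The longer form TCACGTGA, which contains CACGTG, was found in *ATG3* alone, 2.78% of the 36 genes, against 1.18% of all. Both forms read the same on either strand. *ATG3* had the only pair of sites among the members. They are shown with CACGTG in capitals, the first 18 bases before and the second 5 bases after the annotated start.
ATG3, chr3:112561963-112561992, minus strand: cctttctcacgtCACGTGccgggagagtct
ATG3, chr3:112561940-112561969, minus strand: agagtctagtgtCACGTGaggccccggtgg
No match says only that these letters are not in the window, and binding was not measured.

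Exons of 20 of the 39 listed members overlap those of another annotated gene, in 19 cases on the opposite strand. The library kit keeps the strand, but the strand setting of the counting is not given in the sources used here. *ATG9A* and *GABARAP* overlap another annotated gene on their own strand, and their levels are uncertain to that extent. *SCOC*, *ULK1*, *ULK2*, *PIK3C3* and *ATG4C* have no such overlap.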

How the data were processed

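Total RNA of MDA-MB-231 cells with a control or an *RBMS3* hairpin was sequenced from 6 libraries, each made from 5 ng of RNA with a stranded total RNA kit. The authors deposited 1 table with 1 row per gene. The signal values used here were deposited as a mean normalized count, which the authors made by normalizing the reads of each library and averaging over libraries, without division by gene length. Which libraries entered is not stated. Per the file headers, the other 5 columns of values hold the authors' comparison (fold change, standard error, statistic, p-value, adjusted p-value) and were not used. The submitters' processing notes name Salmon, DESeq2 and hg38 without versions. Depth is unknown. Listed means run from 26.7 to 859682, so genes of low expression are missing.

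Identifiers were matched to GENCODE release 44 on GRCh38, which lacks 88 of 15917. The annotation behind this table is not given in the sources used here, while the methods name an earlier GENCODE release for other data of the study. The representative transcript was MANE Select, else the Ensembl canonical one, else that with the longest coding sequence. 3′UTRs under 7 bases were left out. Heptamers were counted with overlaps, and all 193 stretches around them matched the genome. Percentiles give the share of genes below a value, with ties counted in part. Functions were tested on simulated data. All 40 genes are described by role. Members and lists were chosen with earlier results of these data known, and no test was made. Alternatives were the length, the genes ranked, the 3′UTR, the number of matches and the promoter motif. Python 3.11.15 with numpy 2.4.6, pandas 2.3.3 and matplotlib 3.10.9 was used.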

Additional observations from a re-analysis of the deposited data

How the results depend on the processing

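The values rest on 1 pooled mean per gene, so their error is unknown. Of the 10 highest members per kilobase, 8 were among the 10 highest by either other length. The median percentile of the members, 52.1, was 49.2 among protein-coding genes, 53.4 per kilobase of all exons and 59.0 without length. The count of 32 members with a heptamer was 21 with at least 3 matches (listed genes 53.1%) and 15 in the coding sequence (listed genes 40.6%). It was 33 in the longest 3′UTR (listed genes 83.2%) and 23 without AATAAA (listed genes 62.4%), a setting chosen after seeing the data. The median density of 2.24 per kilobase was 2.08 without overlaps (listed genes 2.16) and 1.86 in the longest 3′UTR (listed genes 1.89). The promoter count of 4 was 1 for TCACGTGA. The cause of these differences was not tested beyond what each setting counts. No paired analysis was possible because each gene has a single mean with no replicate behind it. Another normalization, a filter on low counts, a pseudocount, each hairpin alone and leaving out a replicate were not run for that reason.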
